A study of Mus musculus with 12 samples.

Results

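The 8 genes described here, Hmgcs1, Idi1, Fdps, Sqle, Lss, Dhcr7, Insig1 and Srebf2, belong to cholesterol synthesis and its control. They were chosen by symbol among the 22053 rows of a table of mouse kidney expression, and each symbol matched 1 row. None of the 8 is a lipoprotein receptor, so cholesterol uptake was read from a separate list. RNA of whole kidney was sequenced from 12 C57BL/6 wild-type mice, 4 in each of 3 groups, with 1 library per mouse. Control mice ate the diet without adenine and received weekly i.p. phosphate-buffered saline. CKD (chronic kidney disease) mice ate the diet with 0.2% adenine from 8 to 16 weeks of age and received the same saline. CKD+Fe mice ate the adenine diet over the same weeks and were injected i.p. each week with iron dextran, at 0.5 g/kg. The sex of the mice is not given in the labels.

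Cells make cholesterol from acetyl-CoA through mevalonate. Sterol regulatory element-binding protein 2, the product of Srebf2, is held in the endoplasmic reticulum with its escort Scap by the Insig proteins when sterols are plentiful, and when sterols fall it is cleaved and switches on the genes of synthesis and uptake. In the kidney, tubule cells and infiltrating leukocytes both run the pathway, so a whole-kidney value is an average over cell types.

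The stretches before the start of Hmgcs1, Insig1 and Srebf2 are shown because these 3 genes stand for the one of the 8 called lower in CKD, the sterol-responsive brake and the factor itself. They come from RefSeq (GRCm38.p6, plus strand), which held 8 entries for 6 of the 8 genes, and each stops before the gene as annotated or as listed in the deposited table. Capitals mark matches on either strand to the sterol regulatory element TCACNCCAC, the NF-Y box CCAAT, the E-box CACGTG and the Sp1 box GGGCGG. The stretches were chr13:119690101-119690350 for Hmgcs1, chr5:28071162-28071362 for Insig1 and chr15:82147019-82147180 for Srebf2.
Hmgcs1: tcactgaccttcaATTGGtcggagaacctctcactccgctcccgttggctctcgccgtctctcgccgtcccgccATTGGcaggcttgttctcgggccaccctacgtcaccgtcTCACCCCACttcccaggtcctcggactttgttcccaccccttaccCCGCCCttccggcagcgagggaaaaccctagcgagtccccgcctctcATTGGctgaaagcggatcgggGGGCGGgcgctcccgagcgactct
Insig1: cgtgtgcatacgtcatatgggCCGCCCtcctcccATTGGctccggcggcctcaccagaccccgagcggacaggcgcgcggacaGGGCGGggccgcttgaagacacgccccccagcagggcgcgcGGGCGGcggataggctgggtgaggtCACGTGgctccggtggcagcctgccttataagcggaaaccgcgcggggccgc
Srebf2: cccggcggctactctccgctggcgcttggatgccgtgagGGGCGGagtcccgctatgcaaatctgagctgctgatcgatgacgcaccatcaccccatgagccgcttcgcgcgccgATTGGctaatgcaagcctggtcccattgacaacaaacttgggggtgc
The sterol regulatory element letters occurred in 1.05% of the 32851 promoter entries within the 250 bases before the start, the NF-Y box in 33.8%, the E-box in 6.02% and the Sp1 box in 32.7%. Hmgcs1 was the only one of the 6 genes with the sterol regulatory element letters in that window, at base -137 from the RefSeq start, beside 3 NF-Y boxes at -237, -176 and -45. Insig1 held an E-box at -101 and 1 NF-Y box at -216, and Srebf2 held 1 NF-Y box at -135. Sp1 boxes lay at -92 and -24 in Hmgcs1 and at -229, -167 and -126 in Insig1. In Srebf2 they lay at -211 and, beyond the stretch shown, at -79, -52 and -34. Only exact letters were searched. These matches are descriptions of letters and do not show binding.

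Values are FPKM, which scale read fragments by transcript length and library size, so levels can be compared between genes. Where values of single mice are listed, the order is 012811, 012822, 042301 and 042310 for control, 021320, 022301, 110310 and 120102 for CKD, and 042702, 062910, 111710 and 122320 for CKD+Fe mice. The read depth behind the values is unknown, and the relative depth of the libraries estimated from the lowest values ran from 0.678 to 1.0. The median of all 13148 genes tested was higher in CKD than in control by 0.50 on the log2 scale, beside FPKM sums of 607951 to 707843 in control mice and 503438 to 603556 in CKD mice. The 10 proximal tubule markers summed to 67710 to 92170 FPKM in control, 1605 to 8426 in CKD and 2639 to 11020 in CKD+Fe mice, and 9 of them were called lower in CKD. These sums were mostly Kap, at 73020 ± 11450 FPKM in control and 3585 ± 3134 in CKD. The other 9 markers summed to 2280 to 3555 FPKM in control, 579 to 1003 in CKD and 648 to 1287 in CKD+Fe mice, and the median change of all 10 in CKD was -1.73. The 8 thick limb and distal markers summed to 2032 to 3356 FPKM in control, 2748 to 3954 in CKD and 2337 to 3637 in CKD+Fe mice. In CKD 2 of these 8 were called higher and 1 lower, with a median change of 0.45, beside 0.50 over all genes. The 8 macrophage and leukocyte markers summed to 76.5 to 172 FPKM in control and 1348 to 2717 in CKD mice, and 7 were called higher. The 6 fibroblast and 6 tubule injury markers were all called higher, 1 of 5 endothelial markers was called lower, and none of the markers of these cells was at 0 in all mice. Of all genes tested, 54.6% were called higher in CKD and 13.3% lower. Urothelium markers summed to at most 135 FPKM in any mouse and adipocyte markers to at most 115. Fewer cells of a type and less RNA per cell cannot be told apart in these data, and the part of cell makeup in the results below was not tested. Mice 042301 (control), 110310 (CKD) and 042702 (CKD+Fe) stood apart from their groups, with 595, 805 and 442 genes at least 2-fold away from the mean of the other mice.

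Each gene was tested with limma on log2(FPKM + 1) across all 12 mice, with p-values adjusted by the Benjamini-Hochberg method over the 13148 genes and called below 0.05. Fold changes are on this scale and understate the change of low genes. A second scale, median-of-ratios rescaling, sets the typical gene equal between mice, and it moved the all-gene median in CKD against control to -0.03. On this scale 9 of 10 proximal tubule, 2 of 8 thick limb and distal and 4 of 5 endothelial markers were called lower in CKD. None of these 3 lists held a marker called higher. Called higher were 7 of 8 macrophage and leukocyte, 5 of 6 fibroblast and 6 of 6 tubule injury markers. Of all genes, 27.2% were then called higher and 31% lower. The 3 comparisons share mice, so they are not independent of each other.

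In control kidneys the level of Hmgcs1 was the highest of the 8, at 194 ± 17.0 FPKM (SD, n = 4), and its range did not overlap that of the next gene. Sqle (35.1 ± 6.06), Fdps (24.1 ± 6.97), Insig1 (20.8 ± 5.05), Srebf2 (15.6 ± 0.734), Dhcr7 (14.1 ± 1.66), Idi1 (10.5 ± 6.83) and Lss (5.41 ± 0.540) followed, and each of these overlapped its neighbour in the order. In CKD and in CKD+Fe kidneys Hmgcs1 still ranked highest without overlap, Fdps ranked above Sqle with overlapping ranges, and Idi1 was the lowest.

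**Figure D1:**
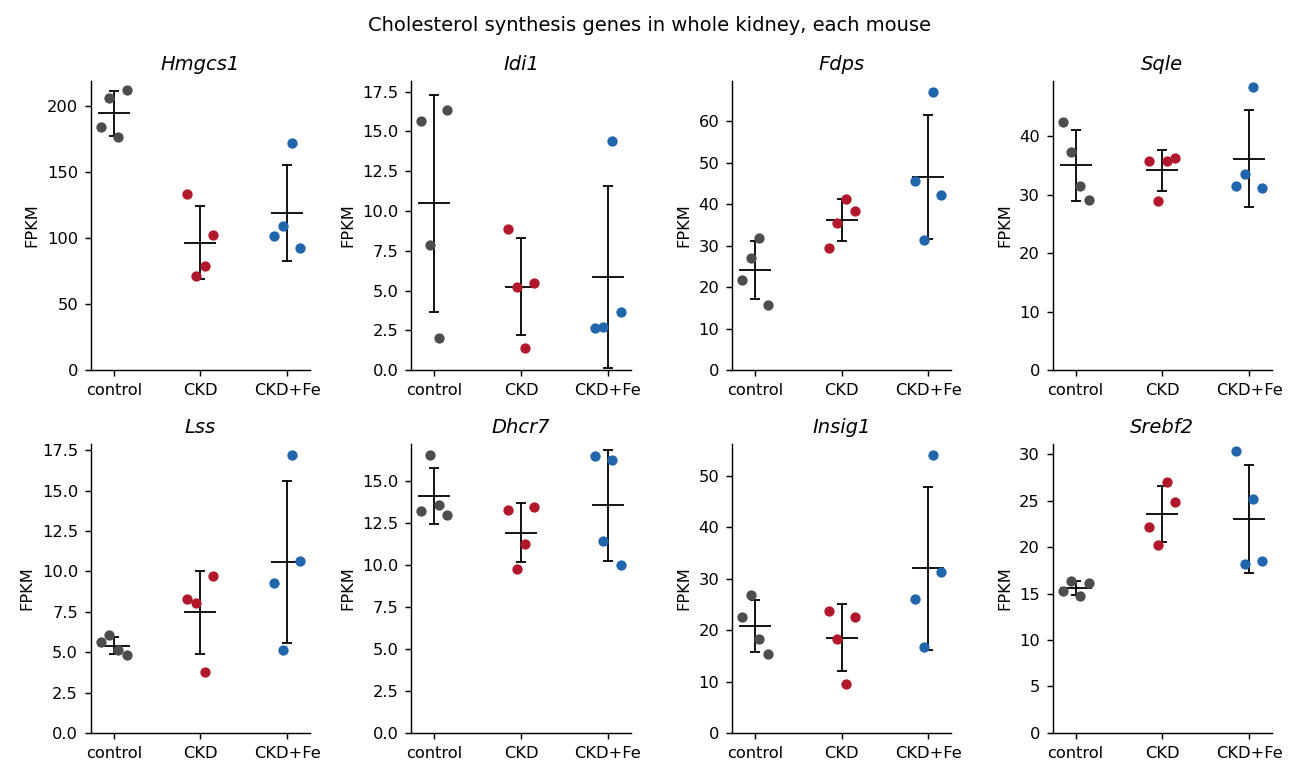
FPKM (vertical axes, linear, from 0) of the 8 genes in each mouse, by group; points are mice, and the black bars give the mean ± SD of 4 mice. Hmgcs1 in CKD mice, at 71.3 to 133 FPKM, lies below all control mice, and Srebf2 in CKD mice, at 20.2 to 27.0 FPKM, lies above them.

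Hmgcs1 makes HMG-CoA, an early intermediate on the way to mevalonate. It lies at chr13:119690379-119708260 (plus strand). Its level was 184, 206, 176 and 211 FPKM in the control mice, 133, 71.3, 78.9 and 102 FPKM in the CKD mice and 101, 109, 172 and 92.3 FPKM in the CKD+Fe mice. Every mouse on the adenine diet was below every control mouse, and CKD+Fe mouse 111710 came nearest to them. Hmgcs1 fell by 1.04 ± 0.21 (log2, SE) in CKD (95% interval -1.50 to -0.58, limma adjusted p = 0.000755, exact permutation p = 0.0286, the smallest that 4 against 4 allows). It stayed lower under each of 21 alternative settings, from -1.66 after rescaling to -0.74 after quantile normalization, with adjusted p from 2.94e-05 to 0.0261. Against control, CKD+Fe mice differed in Hmgcs1 by -0.75 ± 0.21 (adjusted p = 0.00752), a call lost after quantile normalization (-0.50, adjusted p = 0.124).

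Idi1 converts isopentenyl to dimethylallyl diphosphate, and Fdps joins these units into farnesyl diphosphate, the branch point to sterols and to protein prenylation. Idi1 (chr13:8885501-8892451) was measured at 15.7, 7.85, 2.01 and 16.3 FPKM in control, 8.86, 5.23, 1.39 and 5.47 FPKM in CKD and 2.65, 2.69, 14.4 and 3.64 FPKM in CKD+Fe mice. The groups overlapped, and the spread within each was wide: the highest control value was 8.11 times the lowest. Idi1 differed by -0.76 ± 0.60 in CKD against control (interval -2.04 to 0.52, adjusted p = 0.273). Without control mouse 042301, which had the lowest control value and stood apart over all genes, the difference was -1.30 (adjusted p = 0.0446). Idi1 has close copies in the genome, and the share of reads that may belong to them is uncertain.

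Fdps (chr3:89093588-89101959, minus strand) was measured at 21.8, 27.0, 31.9 and 15.6 FPKM in control, 29.5, 35.5, 41.3 and 38.4 FPKM in CKD and 45.7, 31.4, 67.1 and 42.3 FPKM in the iron-treated mice. Control mouse 042301 overlapped the lowest CKD and CKD+Fe mice. On the deposited scale Fdps rose by 0.60 ± 0.23 in CKD (interval 0.10 to 1.10, adjusted p = 0.0338, exact permutation p = 0.0571) and by 0.92 ± 0.23 in CKD+Fe against control (adjusted p = 0.00355). On the rescaled values the same differences were 0.0035 (adjusted p = 0.990) and 0.33 (adjusted p = 0.240). The CKD call held in 3 of the 8 fits that left out 1 control or CKD mouse and was lost without control 012811 or 042310, or CKD 022301, 110310 or 120102, with adjusted p up to 0.113. Fdps overlaps Gm43738 on the same strand, which is listed near 0 in every mouse.

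Sqle, squalene epoxidase, begins the conversion of squalene to sterols, and Lss closes the ring to lanosterol. Sqle (chr15:59315077-59331192) was measured at 42.5, 37.3, 31.4 and 29.0 FPKM in control, 35.8, 29.0, 35.7 and 36.3 FPKM in CKD and 31.6, 33.6, 48.4 and 31.1 FPKM in CKD+Fe mice. The 3 groups overlapped almost fully, apart from the high CKD+Fe mouse 111710. Sqle differed by -0.03 ± 0.16 in CKD against control (interval -0.38 to 0.33, adjusted p = 0.895), and by -0.63 after rescaling (adjusted p = 0.00762).

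Lss (chr10:76531588-76557138) was measured at 5.60, 6.06, 5.15 and 4.81 FPKM in control, 8.31, 8.06, 3.79 and 9.69 FPKM in CKD and 9.26, 5.13, 17.2 and 10.7 FPKM in CKD+Fe mice. In total 3 of 4 mice in each adenine group were above all control mice, while CKD mouse 110310 was below them and CKD+Fe mouse 062910 among them. Lss differed by 0.34 ± 0.30 in CKD (adjusted p = 0.317), and by -0.19 after rescaling (adjusted p = 0.570). It was called higher in CKD+Fe against control, by 0.75 ± 0.30 (adjusted p = 0.0384, exact permutation p = 0.114). That call held in 1 of the 8 fits that left out 1 of these mice, the one without CKD+Fe mouse 062910, and it was lost after rescaling (0.22, adjusted p = 0.530).

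Dhcr7 reduces 7-dehydrocholesterol to cholesterol in the last step of one branch. It lies at chr7:143823145-143848410, and its level was 13.2, 16.6, 13.6 and 13.0 FPKM in control, 13.3, 9.76, 11.3 and 13.5 FPKM in CKD and 16.5, 11.5, 16.3 and 10.01 FPKM in CKD+Fe mice. The groups overlapped, with 2 CKD mice and 2 CKD+Fe mice below all control mice. Dhcr7 differed by -0.23 ± 0.17 in CKD against control (interval -0.59 to 0.14, adjusted p = 0.252). Relative to the typical gene it was lower, by -0.81 after rescaling (adjusted p = 0.000999) and by -0.72 after quantile normalization (adjusted p = 0.00398).

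Insig1 holds the Scap and SREBP complex in the endoplasmic reticulum and is itself switched on by SREBP, so its transcript is often read as a measure of that activity. Insig1 (chr5:28071363-28078662) was measured at 22.5, 26.9, 18.3 and 15.3 FPKM in control, 23.8, 18.2, 9.43 and 22.5 FPKM in CKD and 26.0, 16.8, 54.0 and 31.3 FPKM in CKD+Fe mice. The groups overlapped, CKD mouse 110310 was the lowest of all 12 and CKD+Fe mouse 111710 the highest. Insig1 differed by -0.20 ± 0.33 in CKD (interval -0.91 to 0.50, adjusted p = 0.593), by 0.07 without CKD mouse 110310, and by -0.80 after rescaling (adjusted p = 0.0445).

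Srebf2 (chr15:82147181-82205379), which also hosts Mir33 in an intron, was measured at 15.3, 16.3, 14.8 and 16.1 FPKM in control, 22.2, 20.2, 27.0 and 24.8 FPKM in CKD and 30.3, 18.2, 25.1 and 18.5 FPKM in CKD+Fe mice. Every mouse on the adenine diet was above every control mouse, and the control mice lay within 1.11-fold of each other. On the deposited scale Srebf2 rose by 0.56 ± 0.16 in CKD (interval 0.21 to 0.90, adjusted p = 0.00741, exact permutation p = 0.0286) and by 0.50 ± 0.16 in CKD+Fe against control (adjusted p = 0.0139). These differences were close to the all-gene shift of 0.50, and after rescaling they were -0.03 (adjusted p = 0.870) and -0.08 (adjusted p = 0.696). The table holds transcript levels, and cleavage of the factor was not measured.

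**Figure D2:**
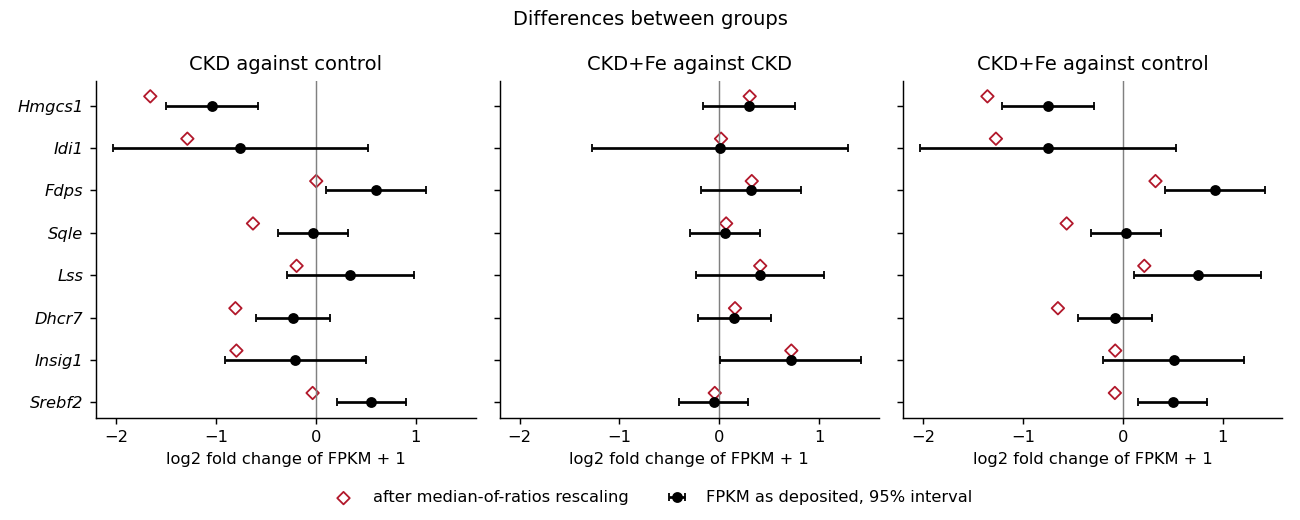
Log2 fold change of FPKM + 1 (horizontal axes) for the 8 genes in the 3 comparisons; black points with bars are limma estimates on the deposited FPKM with 95% intervals from 4 mice a group, and open diamonds are the same differences after median-of-ratios rescaling, without intervals. Hmgcs1 lies below 0 on both scales in CKD against control, at -1.04 and -1.66, while the diamond of Srebf2 lies at -0.03.

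Counted together, 2 of the 8 genes (Fdps and Srebf2) were called higher and 1 (Hmgcs1) lower in CKD against control, where 54.6% of all genes tested were called higher and 13.3% lower. Their median difference was -0.12, against 0.50 over all genes. After rescaling none was called higher and 4 were called lower (Hmgcs1, Sqle, Dhcr7 and Insig1), where 27.2% of all genes were called higher and 31% lower, and their median was -0.71 against -0.03. After quantile normalization none was called higher and 2, Hmgcs1 and Dhcr7, were called lower. Of all 13148 genes tested, 3060 were then called higher and 3363 lower. Without the 3 mice that stood apart, an alternative added after the data were seen, the deposited values again gave 2 called higher and 1 lower. That fit called 7811 of the 13148 genes higher and 2063 lower. For 1 gene, Srebf2, all CKD values lay above all control values (44.6% of all genes), and for 1 gene, Hmgcs1, all lay below (10.4%).

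The wider list of cholesterol synthesis enzymes held 20 measured genes, among them 6 of the 8 described above. Mvd was not analysed here. In CKD 3 of the 20 were called higher and 5 lower, with a median of -0.12, beside 54.6% higher and 13.3% lower and a median of 0.50 over all genes. Cyp51, lanosterol demethylase, fell from 84.7 ± 9.74 to 26.5 ± 9.31 FPKM (log2 change -1.69 ± 0.25, adjusted p = 5.56e-05), the largest difference of the list. Nsdhl, a later sterol enzyme, fell from 37.4 ± 4.31 to 25.8 ± 3.25 FPKM (-0.52 ± 0.19, adjusted p = 0.0250). Acat2, which condenses acetyl-CoA at the entry, and Ebp, a sterol isomerase, were the other 2 called lower beside Hmgcs1, at -0.86 and -0.87, and are named after their values were seen. Pmvk, phosphomevalonate kinase, was the highest of the list, at 11.3 ± 2.60 FPKM in control and 21.8 ± 1.96 in CKD (0.91 ± 0.16, adjusted p = 0.000278), and this call was lost after rescaling (0.33, adjusted p = 0.0940). Fdft1, squalene synthase, was called higher by 0.52 ± 0.20 (adjusted p = 0.0360), and this difference was -0.05 after rescaling.

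Msmo1 and Sc5d did not pass the test in CKD. Msmo1, a sterol methyl oxidase, was at 32.6 ± 6.64 FPKM in control and 40.8 ± 9.55 FPKM in CKD (0.31 ± 0.30, adjusted p = 0.374, and -0.30 after rescaling). Sc5d, a late sterol desaturase, was at 19.2 ± 1.76 and 16.7 ± 3.98 FPKM and differed by -0.22 ± 0.20 (adjusted p = 0.347), and by -0.81 after rescaling (adjusted p = 0.00304). After rescaling, 12 of the 20 enzymes were called lower and none higher, with a median of -0.71, beside 31% and 27.2% of all genes. After quantile normalization 7 were called lower and 1 higher, beside 3363 lower and 3060 higher of all 13148 genes. Hmgcs1, Cyp51, Ebp, Acat2 and Nsdhl were called lower on both the deposited and the median-of-ratios scale.

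**Figure D3:**
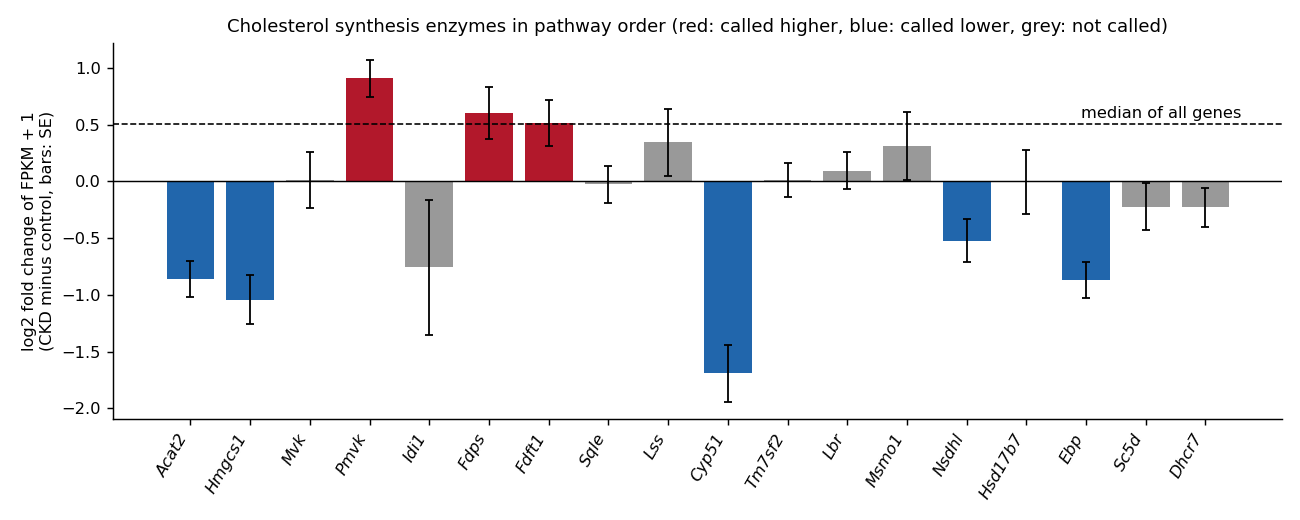
Log2 fold change of FPKM + 1 in CKD minus control (vertical axis) for 18 of the 20 synthesis enzymes in approximate pathway order; bars are limma estimates with SE from 4 mice a group, colours give the call, and the dashed line is the median of all genes. Cyp51 reaches -1.69, and Pmvk, Fdps and Fdft1 are the 3 enzymes called higher.

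The 15 genes that carry or control SREBP include Srebf2 and Insig1. In CKD 10 of the 15 were called higher and none lower, beside 54.6% and 13.3% of all genes. The median of the 15 was 0.49, against 0.50 over all genes. After rescaling 1 was called higher and 5 lower, with a median of -0.09, beside 27.2% and 31% of all genes. Sp1, a factor that binds beside SREBP at many sterol promoters, was the highest of them, at 6.83 ± 0.871 FPKM in control and 17.1 ± 5.38 in CKD (1.15 ± 0.21, adjusted p = 0.000324), and it remained called after rescaling (0.59, adjusted p = 0.0193). Of 12 genes of uptake and trafficking, 8 were called higher and none lower in CKD, with a median of 0.76, beside 54.6% of all genes called higher and their median of 0.50. After rescaling 5 of the 12 were called higher, beside 27.2% of all genes. Lrp1, a large scavenging receptor found on many stromal and myeloid cells, was the highest of the uptake list (1.89 ± 0.31, adjusted p = 0.000148), and Lipa, the lysosomal acid lipase, was the lowest (-0.13 ± 0.35, adjusted p = 0.751).

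In all, 3 further lists showed the surroundings of the pathway in CKD, and their counts stand beside the 54.6% of all genes called higher and 13.3% called lower. Of 10 genes of efflux, storage and oxysterols, 5 were called higher and 3 lower. Apoe, the lipid carrier made by macrophages among other cells, was at 147 ± 57.7 FPKM in control and 2377 ± 898 in CKD (3.995 ± 0.39, adjusted p = 2.34e-06), beside the macrophage marker sums above. Cyp7b1, an oxysterol hydroxylase, fell from 205 ± 47.6 to 11.2 ± 1.93 FPKM (-4.06 ± 0.25, adjusted p = 6.01e-08), beside the proximal tubule marker sums with and without Kap. Of 9 fatty acid synthesis genes that SREBP-1 controls, 4 were called higher and 2 lower, from Scd2, a desaturase (1.40 ± 0.18, adjusted p = 1.82e-05), to Me1, malic enzyme (-2.24 ± 0.25, adjusted p = 6.83e-06). Of 7 genes of the non-sterol branch, 2 were called higher and 4 lower, from Ggps1, which makes geranylgeranyl diphosphate (0.83 ± 0.25, adjusted p = 0.0105, and 0.29 with adjusted p = 0.336 after rescaling), to Pdss1, of ubiquinone side-chain synthesis (-1.29 ± 0.14, adjusted p = 4.22e-06). After rescaling the counts were 5 higher and 4 lower, 2 and 2, and 0 and 5 for these lists in turn, beside 27.2% and 31% of all genes.

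The comparison of CKD+Fe with CKD asked what iron dextran changed in the diseased kidney. None of the 8 genes was called, where 0.00761% of all genes (1 gene) were called higher and 0% lower. At an unadjusted limma p below 0.05, 431 genes were higher and 359 lower, and Insig1 was the only one of the 8. Insig1 was higher by 0.72 ± 0.33 (interval 0.01 to 1.42, exact permutation p = 0.171, limma adjusted p = 0.824). With 1 mouse left out its difference ran from 0.43, without CKD+Fe mouse 111710, to 0.97. For the other members the difference was 0.30 (interval -0.16 to 0.75) for Hmgcs1, 0.06 (-0.29 to 0.41) for Sqle, 0.41 (-0.23 to 1.05) for Lss, 0.01 (-1.28 to 1.29) for Idi1, 0.32 (-0.18 to 0.82) for Fdps, 0.15 (-0.22 to 0.52) for Dhcr7 and -0.05 (-0.40 to 0.29) for Srebf2. With 1 mouse left out these differences ran from 0.10 to 0.46 for Hmgcs1 and 0.15 to 0.68 for Lss. They ran from 0.13 to 0.49 for Fdps and 0.05 to 0.28 for Dhcr7. Those of Sqle, Idi1 and Srebf2 changed sign in some of these fits. With all mice, 7 of the 8 were positive, with a median of 0.22 against -0.00050 over all genes, and rescaling left the median at 0.23. Without CKD+Fe mouse 111710, 5 of the 8 were positive and their median was 0.08. Of the 20 synthesis enzymes 18 were positive and none was called, with a median of 0.21, and without mouse 111710 15 were positive, with a median of 0.05. Of the markers, 10 of 10 for proximal tubule were positive (median 0.48) and 0 of 6 for tubule injury (median -0.61). The counts were 6 of 6 for urothelium (0.69), 5 of 5 for endothelium (0.17) and 6 of 8 for thick limb and distal tubule (0.24). They were 3 of 8 for macrophages and leukocytes (-0.04) and 2 of 6 for fibroblasts (-0.39). Without mouse 111710, 8 of 10 proximal tubule markers (0.31) and 0 of 6 injury markers (-0.49) were positive. None of these markers was called, and their part in the differences of the 8 genes was not tested. The 2 groups overlapped for all 8 genes, where the iron-treated values lay wholly above those of CKD mice in 1.35% of all genes and wholly below in 1.08%. The relative depth estimates were 0.747 to 0.807 in CKD and 0.678 to 0.907 in CKD+Fe mice.

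In CKD+Fe against control, 3 of the 8 genes (Lss, Fdps and Srebf2) were called higher and Hmgcs1 lower, where 54.4% of all genes were called higher and 11% lower. After rescaling none was called higher and 3 were called lower (Hmgcs1, Sqle at -0.56 and Dhcr7 at -0.65, beside 0.03 and -0.08 on the deposited scale), where 26.1% of all genes were called higher and 29.3% lower. The iron-treated values lay wholly above control for Srebf2 (50.4% of all genes) and wholly below for Hmgcs1 (9.82%). Cyp51 was at 29.6 ± 10.7 FPKM in CKD+Fe mice, -1.54 ± 0.25 from control (adjusted p = 0.000145), and Nsdhl at 35.6 ± 11.6 FPKM was -0.11 ± 0.19 from control (adjusted p = 0.615), but -0.71 after rescaling (adjusted p = 0.00513) and -0.30 without mouse 111710 (adjusted p = 0.112). The change of Nsdhl from CKD to CKD+Fe was 0.41 ± 0.19 (adjusted p = 0.828), and 0.22 without mouse 111710.

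Within the CKD+Fe group, mouse 111710, singled out after its values were seen, had the highest level of its group for 6 of the 8 genes and for 16 of the 20 synthesis enzymes, where it was the highest for 20.1% of all genes. Its level was 4.81 times the mean of the other 3 CKD+Fe mice for Idi1, 2.19 times for Insig1, 2.06 times for Lss, 1.70 times for Hmgcs1, 1.69 times for Fdps, 1.51 times for Sqle, 1.28 times for Dhcr7 and 1.12 times for Srebf2. Outside the 8, it was 2.53 times for Msmo1, 1.77 times for Cyp51, 1.74 times for Fdft1 and 1.71 times for Nsdhl. Over all genes this mouse had few large differences, with 44 genes at least 2-fold away from its group, the fewest of the CKD+Fe mice. It was the highest of its group for 0 of 10 genes of efflux, storage and oxysterols, 2 of 9 fatty acid synthesis genes and 4 of 7 genes of the non-sterol branch.

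Other measures of mouse 111710 are given beside this pattern, and their part in it was not tested. Its relative depth estimate was the highest of the CKD+Fe mice, at 0.907 against 0.678 to 0.785. Its proximal tubule markers summed to 3884 FPKM and its macrophage markers to 2096 FPKM, both inside the range of the other CKD+Fe mice. Without Kap the proximal tubule sum was 1287 FPKM, the highest of the group against 648 to 1279, and this mouse was the highest for 5 of the 10 proximal tubule markers, or 50% against 20.1% of all genes. Its tubule injury sum of 789 FPKM and its fibroblast sum of 367 FPKM were the lowest of the group. Adipocyte markers summed to 12.6 FPKM in this mouse, and to 0.62 in CKD+Fe mouse 042702, 1.16 in 062910 and 115 in 122320.

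The mean deviation of the 8 genes from the group mean was 0.64 (log2) in mouse 111710 and -0.42 in CKD+Fe mouse 062910, in which all 8 lay below the group mean, and it was -0.22 to 0.14 among control mice and -0.33 to 0.23 among CKD mice. CKD mouse 110310 had the lowest level of its group for Insig1, Lss and Idi1, 3 of the 8, where it was the lowest for 40.4% of all genes, and Srebf2 and Fdps were highest in that same mouse.

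**Figure D4:**
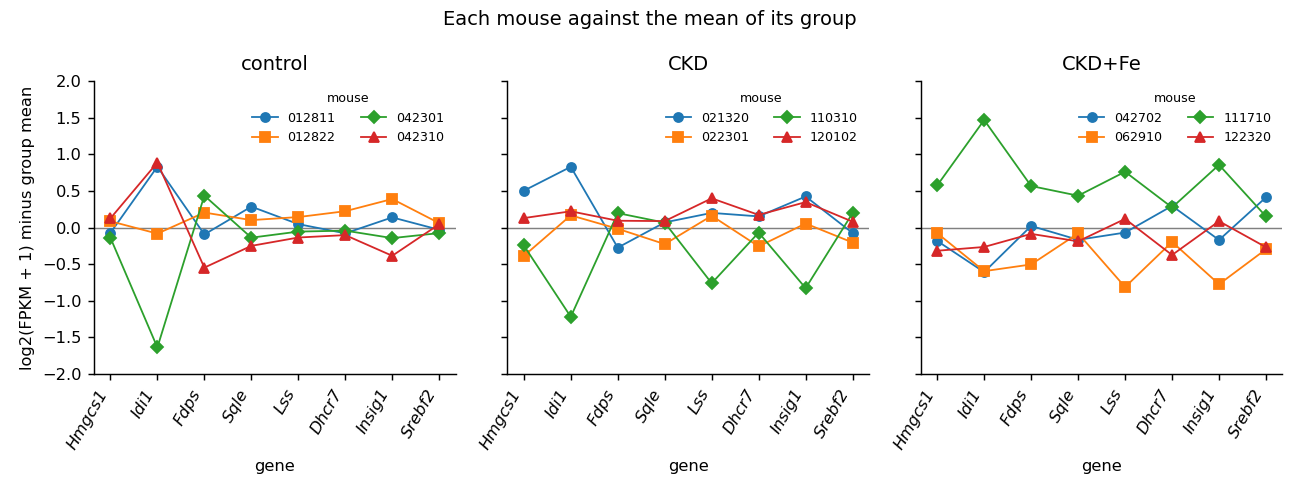
Log2(FPKM + 1) of each mouse minus the mean of its group (vertical axis) for the 8 genes, in 3 panels by group; each line is 1 mouse. In CKD+Fe mice the line of 111710 lies above 0 at all 8 genes and that of 062910 below 0 at all 8.

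The genes whose pattern over the 12 mice was nearest to the mean of the 8 were found by the root mean square difference of centred log2(FPKM + 1), among 13132 genes with a value in every mouse. Of the 5 nearest, Sfxn2 (0.18), Sc5d (0.19), Acot6 (0.19) and Syde2 (0.19) are given here, against a median of 0.49 over all genes. Sc5d is a cholesterol synthesis enzyme. Of the 8 themselves Sqle (0.21) and Dhcr7 (0.23) were nearest to their common mean and Idi1 (0.78) farthest. Insig1 (0.32), Lss (0.34) and Srebf2 (0.39) lay between, and Hmgcs1 (0.47) and Fdps (0.48) were near the all-gene median. Each of the 8 is part of this mean, and small values also come to genes with little spread.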

How the data were processed

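Whole-kidney mRNA (TruSeq stranded, single-end, 50 cycles) had been sequenced in 12 mice. Per the submitters' notes, bcl2fastq 2.19, STAR 2.5.2 and Cufflinks 2.1.1 were used with GRCm38, and the authors deposited FPKM per gene in 1 table of 22053 rows. Of its values, 30 in 17 rows were marked as failed estimates and were treated as missing. The study tested counts with DESeq2, and counts were not used here, so log2(FPKM + 1) was fitted with limma 3.58.1 (R 4.3.3, trended variance, all 12 mice) over the 13148 genes that reached 1 FPKM in 4 or more mice, at an adjusted p of 0.05. Single genes were also tested by an exact two-sided permutation over 70 arrangements. The fit was tested on simulated data. Alternatives were a pseudocount of 0.1, no filter, a mean of 5 FPKM, median-of-ratios and quantile scaling, the compared groups alone, array weights, no trend, an adjusted p of 0.5 and leaving out each mouse. The genes named were the 8 in full, further sterol genes, the highest and lowest of each list and the 5 nearest by pattern, and some genes that this rule names are not reported here. Members and lists were chosen with earlier results of these data known. The p-values set a difference of group means against the spread between mice. In limma this spread was pooled over the 3 groups and moderated across genes. Gene positions are from GENCODE M21 (GRCm38), and promoters were read from RefSeq. No set test was run.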

Additional observations from a re-analysis of the deposited data

Results flagged for a closer look

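Of 24 groups of 4 values (8 genes in 3 groups), 4 held a mouse whose gap to the nearest of the others took up more of the group's range than Dixon's 95% critical value allows. The rule was used on FPKM, and for independent, normally spread values it is passed in about 1 of 20 groups. The 8 genes share the same mice, so the 24 groups are not independent. Their count was not compared with that over all genes and cannot be judged against this rate. Dhcr7 was 16.6 FPKM in control mouse 012822, above the other control mice. Sqle was 29.0 FPKM in CKD mouse 022301, below the other CKD mice. Sqle at 48.4 FPKM and Idi1 at 14.4 FPKM were both far above the other CKD+Fe mice in mouse 111710, the mouse that also had the highest values of its group for most synthesis enzymes. The cause was not tested.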

How the results depend on the processing

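In CKD against control, 7181 genes were called higher and 1748 lower. The counts became 3571 and 4075 after median-of-ratios rescaling and 3060 and 3363 after quantile normalization, and 2681 were lower at an adjusted p of 0.5. Leaving out 1 mouse gave 6574 to 7348 higher and 1550 to 1876 lower. Of the 8 genes, 2 were called higher, against 0 after either rescaling, 1 without the filter and 1 to 2 with 1 mouse left out. One was called lower, against 4 (median-of-ratios), 2 (quantile), 3 (adjusted p of 0.5) and 1 to 2 with 1 mouse left out. After iron in CKD, 1 gene was higher and 0 lower, against 79 and 56 with array weights, 92 and 72 at an adjusted p of 0.5, 51 and 33 without the 3 mice that stood apart, and 0 to 9 and 0 to 4 with 1 mouse left out. None was higher with a pseudocount of 0.1, without the filter or with the 2 groups alone (0 each), and 1 was lower without the trend. For iron-treated against control mice, 7159 genes were higher and 1442 lower, against 3427 and 3851 (median-of-ratios) and 2605 and 2967 (quantile), 4749 higher with a mean of 5 FPKM and 2388 lower at an adjusted p of 0.5. Leaving out 1 mouse gave 6570 to 7512 and 1238 to 1542. Of the 8 genes, 3 were higher, against 0 and 1 after these scalings and 2 to 4 with 1 mouse left out, and 1 was lower, against 3 (median-of-ratios), 2 at an adjusted p of 0.5 and 1 to 2 with 1 mouse left out.

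Signs turned in 30 of the fitted differences of named genes. After median-of-ratios rescaling in CKD against control they were Lss (-0.19), Srebf2 (-0.033), Fdft1 (-0.054) and Msmo1 (-0.30), and after quantile normalization Lss (-0.37) and Fdft1 (-0.027). For CKD+Fe against control they were Sqle (-0.56 and -0.16 after these scalings, -0.0017 with array weights), Insig1 (-0.074) and Srebf2 (-0.078). Without the 3 mice that stood apart, Insig1 was 0.023 in CKD and Idi1 -0.20 in CKD+Fe against CKD. With 1 mouse left out, the ranges in CKD against control were -0.11 to 0.070 for Sqle, -0.35 to 0.071 for Insig1 and -0.58 to 0.089 for Lipa. In CKD+Fe against CKD they were -0.085 to 0.12 for Sqle (0.14 without the 3 mice), -0.48 to 0.28 for Idi1 and -0.19 to 0.045 for Srebf2, and in CKD+Fe against control -0.11 to 0.13 for Sqle and -0.17 to 0.049 for Dhcr7. Depth in reads is unknown, so precision rests on the spread between 4 mice a group. The cause of these changes was not tested.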
